A study of Mus musculus with 3 samples.

Results

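Weak H3K4me3 regions that both hippocampal libraries nevertheless detected are described here: 902 regions, among 20211 regions formed from the peaks of 2 libraries and among 17367 regions with peaks of both. They were chosen by the authors' peak scores. Overlapping peaks of the 2 lists (at least 1 bp) were joined into a region, and a region was kept when its highest score was below 100 in the wild-type (WT) list and below 100 in the transgenic (HD) list. The scores of these regions are therefore given as a description of the choice and support nothing else. The length of a peak comes from the same reads as its score, so lengths are described as well, without a test.

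The WT library was made from wild-type mice and the HD library from N171-82Q mice, which carry a transgene for an N-terminal fragment of mutant huntingtin, driven by the prion protein promoter, as a model of Huntington's disease. All animals were adult C57/DBA F1 hybrid males and littermates served as controls. Each library came from whole hippocampi pooled from 3 mice, so there was 1 library per genotype, no spread between replicates and no p-value. An input DNA sample of the series was not used here. Genotype and library cannot be told apart, and every value below describes this pair of libraries. Intervals are 95% intervals over regions (order-statistic for medians, exact binomial for shares). They cover counting error only; differences between mice are not covered.

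H3K4me3 is the trimethylated form of lysine 4 of histone H3, written at gene starts by the SET1 and MLL methyltransferase complexes. Strong, wide peaks mark promoters of active genes, and many CpG island promoters carry the mark when their gene is poised. Weak peaks can lie at alternative promoters, at enhancers, which mainly carry the monomethylated form, and at promoters used by few of the cells in a tissue. The hippocampus holds several kinds of neurons and glia. In such bulk tissue, a mark in fewer cells and less of the mark per cell cannot be told apart.

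Weak peaks in 1 list met very different counterparts in the other. Of the 2720 regions with a highest WT score below 100, 912 had no HD peak (33.5%, 31.8 to 35.3%), 902 had an HD peak that was weak too (33.2%, 31.4 to 35.0%) and 906 had an HD peak scoring at least 100 (33.3%, 31.5 to 35.1%). Of the 2643 regions with a highest HD score below 100, 1450 had no WT peak (54.9%, 52.9 to 56.8%), the same 902 had a weak WT peak (34.1%, 32.3 to 36.0%) and 291 had a WT peak scoring at least 100 (11.0%, 9.84 to 12.3%). Many more shared regions thus passed 100 in the HD list alone than in the WT list alone. Over all peaks the limit lay at a similar place in each list: 15.0% of the 18515 WT peaks and 14.6% of the 19631 HD peaks scored below 100. Among the 17367 shared regions it did not: 1808 were below 100 in WT and 1193 in HD. The scores were also spread differently, with a median over all peaks of 843.16 in WT and 1143.91 in HD. A score of exactly 3100 was given to 448 WT peaks and 2184 HD peaks. The depth of the libraries is unknown and a score depends on it; its part in these counts was not tested.

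Among the 902 regions, WT scores ran from 50.14 to 99.98 with a median of 68.5 (quartiles 58.5 and 80.7). HD scores ran from 50.01 to 99.77 with a median of 70.8 (quartiles 59.7 and 84.0). The median region stood at the 7.43 percentile of the WT scores and at the 8.37 percentile of the HD scores. The rule cut both scores off at 100, so their relation within the set is not described. Positions are given in the mm9 build, counted from 1. The 2 regions just inside the limit lay at chr9:99531886-99533487 (WT score 99.98, HD score 72.75) and at chr19:42119543-42120675 (99.91 and 72.02). The 2 just outside lay at chr2:146664089-146666045 and at chr11:32199794-32201524, each with an HD score of 100.01 and with WT scores of 89.00 and 76.53.

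**Figure D1:**
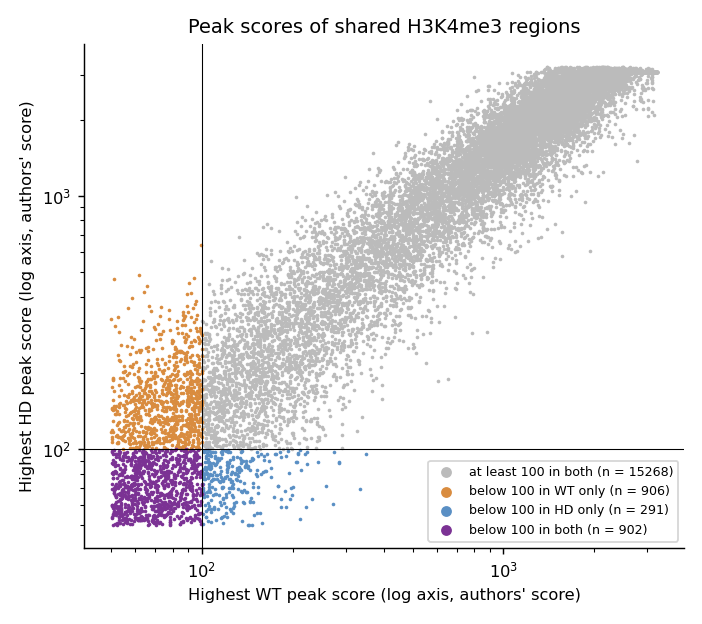
Highest WT score (x axis) against highest HD score (y axis) of each shared region, both on log axes, each list with a scale of its own; lines mark the limit of 100. The 902 regions fill the lower left corner, and the 906 regions above them outnumber the 291 to their right.

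The regions were short. Their median width, from the first to the last base of either library's peaks, was 1232 bp (1215 to 1250 bp; quartiles 1103 and 1415 bp). Shared regions with scores of 100 to 200 in both lists had a median width of 1490 bp (1467 to 1523 bp, n = 736), and the 15268 with at least 100 in both had 2588 bp (2567 to 2605 bp). These widths span the peaks of both libraries. Within 1 library, the weak shared regions covered a median of 1148 bp in WT (1128 to 1164 bp) and 1032 bp in HD (1012 to 1045 bp), and weak regions found in that library alone covered 1105 bp in WT (1088 to 1124 bp, n = 912) and 998 bp in HD (979 to 1010 bp, n = 1450). The weak shared regions held 1.07 Mb of WT peaks and 0.958 Mb of HD peaks, which is 2.33% and 2.19% of all bases covered in each list, although they were 5.19% of the shared regions.

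The 4 widest exceeded the median width of regions scoring at least 100 in both, 2588 bp. On chr5:102091870-102094980 the region spanned 3111 bp, of which WT peaks covered 1053 bp and HD peaks 3042 bp. The next, at chr6:115199669-115202443, spanned 2775 bp and was almost equally covered, by 2433 bp in WT and 2332 bp in HD. Those at chr10:119912118-119914839 and at chr19:55199510-55202221 spanned 2722 and 2712 bp and were longer in HD, with 2574 against 1771 bp and 2584 against 2100 bp. At the other end, the narrowest were 625 bp at chr12:11444732-11445356, 646 bp at chr7:108802181-108802826, 654 bp at chr12:8645133-8645786 and 712 bp at chr13:21903833-21904544. All 4 narrow regions were a little shorter in HD, with log2 ratios between -0.16 and -0.080.

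**Figure D2:**
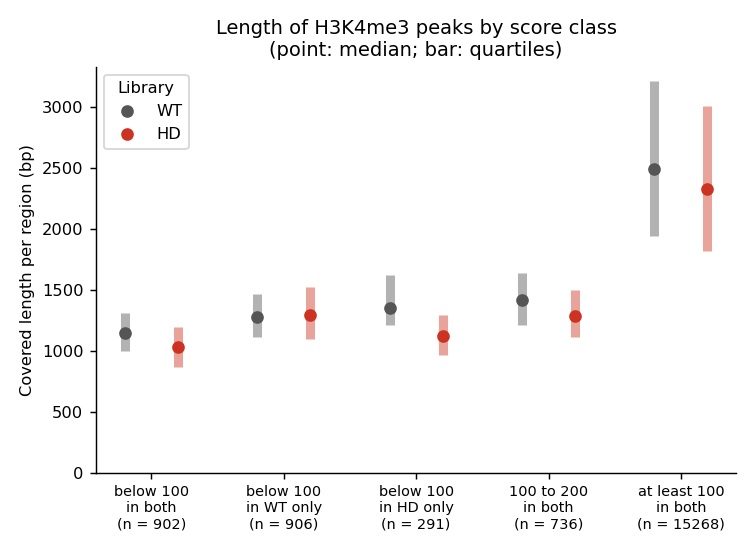
Covered length per region in bp (y axis) in the WT and HD lists for 5 score classes of shared regions; points are medians and bars run from the lower to the upper quartile. The regions below 100 in both had a WT median of 1148 bp and an HD median of 1032 bp, the lowest of the classes in each library.

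The rule kept only regions where peaks of the libraries overlapped, so weak peaks without a counterpart are not in the values that follow. Within the kept regions the overlap was mostly large. In 898 of the 902 regions each library had exactly 1 peak. In 883 (97.9%) the bases covered by both made up at least 50% of each library's peak. This share was 99.0% in regions of 100 to 200 in both and 99.8% in those of at least 100 in both. The bases covered by both libraries were a median of 77.3% of those covered by either (quartiles 68.4 and 85.8%). In regions scoring 100 to 200 in both this was 81.6%, and in those scoring at least 100 in both 87.6%. The centres of the WT and HD peaks lay a median of 89.8 bp apart (upper quartile 160.4 bp), against 95.5 bp in regions of at least 100 in both. The weak regions thus shared a smaller part of their bases at a similar offset in bp. The Spearman correlation of WT and HD covered length across the weak regions, whose lengths span a narrower range, was 0.46, against 0.62 in regions of 100 to 200 and 0.93 in regions of at least 100 in both.

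Most of the weak regions were shorter in HD. The covered length had quartiles of 996 and 1313 bp in WT and of 870.2 and 1199 bp in HD. Of the 902, 631 were shorter in HD (70.0%, 66.8 to 72.9%), 270 were longer and 1 had the same length. The log2 ratio (covered length in HD over that in WT) had a median of -0.16 (-0.18 to -0.13; quartiles -0.37 and 0.05). At that median, HD peaks covered 10.2% less than WT peaks. In regions of 100 to 200 in both it was -0.12 (-0.15 to -0.097), an interval that overlapped that of the weak regions, and in the 16465 other shared regions it was -0.088 (-0.091 to -0.085). The share of regions shorter in HD was close to theirs, 69.0% (68.3 to 69.7%).

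In bp, the median of HD minus WT covered length was -118.5 in the weak regions (-133 to -94 bp), -107.5 in regions of 100 to 200 in both (-142 to -83 bp) and -153 in regions of at least 100 in both (-158 to -147 bp). Where each library had 1 peak, the left HD edge lay a median of 50 bp inside the WT edge (34 to 66 bp), and the right one 58.5 bp (48 to 75 bp). In regions of at least 100 in both these medians were 66 and 68 bp. The HD peak reached beyond the WT peak on neither side in 363 weak regions (40.4%, 37.2 to 43.7%) and fell short of it on neither side in 101 (11.2%, 9.25 to 13.5%).

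The ratio was also compared within classes of region width. This width spans the peaks of both libraries, so a difference in length itself widens a region. The class of 1500 to 2000 bp lay above the upper quartile of the weak regions (1415 bp). It lay below the lower quartile of regions of at least 100 in both (2045 bp). The classes thus do not match the 2 sets, and differences within a class are partly built in. Among regions 1200 to 1500 bp wide, the median log2 ratio was -0.18 (-0.22 to -0.11) in the 351 weak regions and -0.080 (-0.10 to -0.065) in the 793 with at least 100 in both. Among those 1500 to 2000 bp wide the medians were -0.19 (-0.27 to -0.096, n = 120) and -0.080 (-0.090 to -0.073, n = 2538). The median difference in these classes was -137 bp against -74 bp, and -206.5 bp against -94 bp. The weak regions had the lower median log2 ratio in each of 5 width classes, but the intervals overlapped in both classes below 1200 bp and in the widest class, from 2000 bp.

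The score limit itself moved with the ratio. In the 906 regions below 100 in WT only, the median log2 ratio was 0.012 (-0.010 to 0.027), and in the 291 below 100 in HD only it was -0.26 (-0.33 to -0.21). The weak shared regions, which had to be below 100 in both lists, lay between. When all shared regions below 100 in WT were taken, at any HD score, the median was -0.070 (-0.088 to -0.055). With all those below 100 in HD, at any WT score, it was -0.18 (-0.21 to -0.16), and with those below 100 in at least 1 list -0.098 (-0.11 to -0.084). Within the set, the 408 regions that ranked higher in the WT list than in the HD list had a median of -0.26 (-0.29 to -0.22). The 494 that ranked higher in the HD list had -0.077 (-0.10 to -0.052). Scores and lengths come from the same reads, so these differences are partly built in and the split within the set adds no support. The median ratio differed with the list whose scores set the limit, and it was near 0 where the WT score alone was below it. Above the limit the medians were -0.084, -0.075, -0.086 and -0.094 in regions whose lower score was 100 to 200, 200 to 500, 500 to 1000 and 1000 or more.

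**Figure D3:**
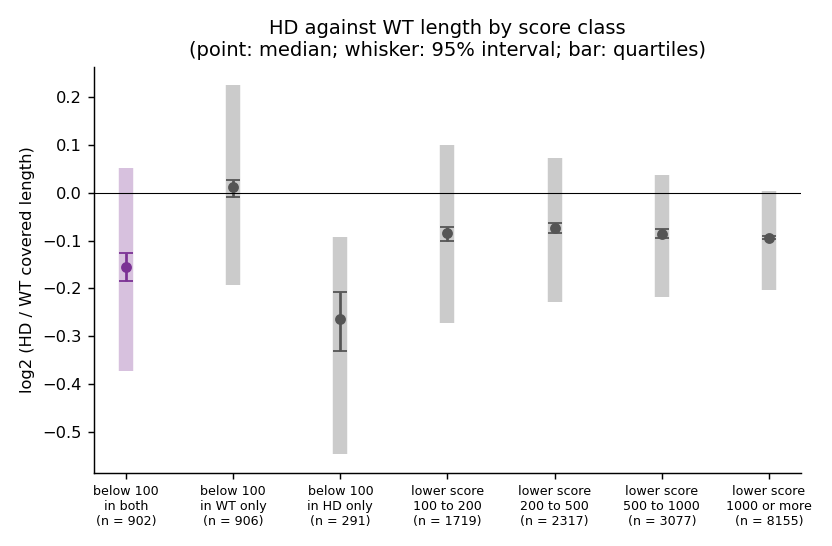
Log2 of the covered length in HD over that in WT (y axis) for 7 score classes of shared regions (x axis); points are medians, whiskers 95% intervals over regions and bars quartiles. The regions below 100 in both had a median of -0.16, between the classes weak in WT only (0.012) and weak in HD only (-0.26).

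Large differences in length were more frequent among the weak regions than among all shared regions. More than 1.5-fold shorter in HD were 98 of the 902 (10.9%, 8.91 to 13.1%), against 2.79% of all 17367 shared regions. More than 1.5-fold longer were 13 (1.44%, 0.770 to 2.45%), against 0.749% of all shared regions. In the class of 100 to 200 in both these shares were 7.20% and 0.951%. They were 19.9% and 0.687% in regions below 100 in HD only, and 3.09% and 5.19% in those below 100 in WT only. The excess of losses was thus not particular to the weak shared regions, and its direction differed with the list that was weak. Shares by region width are partly built in, because a difference in length itself widens a region. At a width of 1200 to 1500 bp, losses were 11.7% of the weak regions and 3.28% of those of at least 100 in both. At 1500 to 2000 bp they were 24 of 120 weak regions against 1.93%, and from 2000 bp 5 of 28 against 1.84%. In narrower regions the shares lay closer together: 6.76% against 5.41% at 1000 to 1200 bp, and 7.38% against 4.88% below 1000 bp. Beyond 2-fold, 10 weak regions were shorter and 1 was longer.

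The largest losses left a short HD peak inside a longer WT peak. On chr6:30623707-30626139, 2433 bp in WT faced 1022 bp in HD (log2 ratio -1.25), with the left HD edge 1247 bp inward and the right edge 164 bp inward. On chr14:48752725-48754601, 1877 bp faced 803 bp (-1.22), and here the left edges nearly met, 14 bp apart, while the right HD edge lay 1060 bp inward. The region at chr9:63864177-63866000, 1824 against 839 bp (-1.12), also lost mainly on 1 side, with HD edges 188 and 797 bp inward. Regions at chr3:130040223-130041532, chr9:80179615-80180901 and chr10:58263262-58264542 were 1281 to 1310 bp long in WT and 553 to 568 bp in HD, with ratios of -1.24, -1.21 and -1.17. In all 6, the HD peak lay wholly within the WT peak.

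The largest gain was the widest region, on chromosome 5, with a log2 ratio of 1.53: the HD peak began 2058 bp to the left of the WT peak and ended 69 bp inside it. Next, at chr9:54612222-54614075, 927 bp in WT faced 2 HD peaks with 1803 bp together (0.96). The other 4 gains had ratios of 0.69 to 0.82 and lay at chr8:90063691-90064825, chr15:59659411-59660519, chr17:57022560-57023829 and chr11:20460966-20462112. Their HD peaks of 1109 to 1270 bp enclosed WT peaks of 642 to 771 bp.

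Besides the chromosome 9 region, 3 more regions held 2 HD peaks for 1 WT peak, and none held more than 1 WT peak. These divided regions were picked after their values were seen. Those on chromosome 6 and chromosome 10 are among the 4 widest, with log2 ratios of -0.061 and 0.54. The fourth, at chr15:72897151-72898812, had 1662 bp in WT and 1432 bp in HD (-0.21).

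Most weak regions did not adjoin a stronger one. The gap to the nearest stronger region, one that scored at least 100 in either list, had a median of 29.2 kb (26.5 to 33.4 kb; quartiles 10.5 and 83.1 kb). Regions of at least 100 in both lay a median of 26.5 kb (25.7 to 27.3 kb) from the next stronger region. Within 5 kb of a stronger region were 144 weak regions (16.0%, 13.6 to 18.5%), against 14.6% (14.0 to 15.1%) of those of at least 100 in both. At shorter gaps the intervals lay apart. The shares were 4.99% (3.66 to 6.62%) and 3.20% (2.92 to 3.49%) within 1 kb, and 8.54% (6.80 to 10.6%) and 6.03% (5.65 to 6.41%) within 2 kb. Regions of 100 to 200 in both had 6.11% within 1 kb and 9.78% within 2 kb. Beyond 100 kb were 187 (20.7%, 18.1 to 23.5%), against 15.6% (15.0 to 16.2%). In regions of 100 to 200 in both this share was 17.0% (14.3 to 19.9%), in those below 100 in HD only 26.5% (21.5 to 31.9%) and in weak WT-only regions 22.9% (20.2 to 25.8%). It was 13.5% (11.3 to 15.9%) in shared regions below 100 in WT only and 14.9% (13.1 to 16.8%) in weak HD-only regions. A larger remote share was thus neither limited to the weak shared regions nor found in every weak class.

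Close flanking was more frequent for weak WT-only regions than for the weak shared regions. The intervals lay apart at 1 kb and at 2 kb, but they overlapped at 5 kb. At 2 kb the shares were 14.0% (11.8 to 16.5%) and 8.54% (6.80 to 10.6%). Weak HD-only regions also had higher shares, with 11.6% (9.98 to 13.3%) at 2 kb. Their intervals overlapped those of the weak shared regions at 1, 2 and 5 kb. Within 1 kb of a stronger region lay 45 of the 902 weak shared regions (4.99%, 3.66 to 6.62%), but 89 of the 912 weak WT-only regions (9.76%, 7.91 to 11.9%) and 111 of the 1450 weak HD-only regions (7.66%, 6.34 to 9.15%). At 5 kb the shares were 16.0%, 20.4% (17.8 to 23.2%) and 19.0% (17 to 21.1%). The median gap was 30.4 kb for weak WT-only and 25.0 kb for weak HD-only regions. Weak regions at 1 kb or less depend on how peaks are joined: with peaks within 1 kb joined, 856 regions met the rule and 11.1% of them lay within 5 kb of a stronger region.

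**Figure D4:**
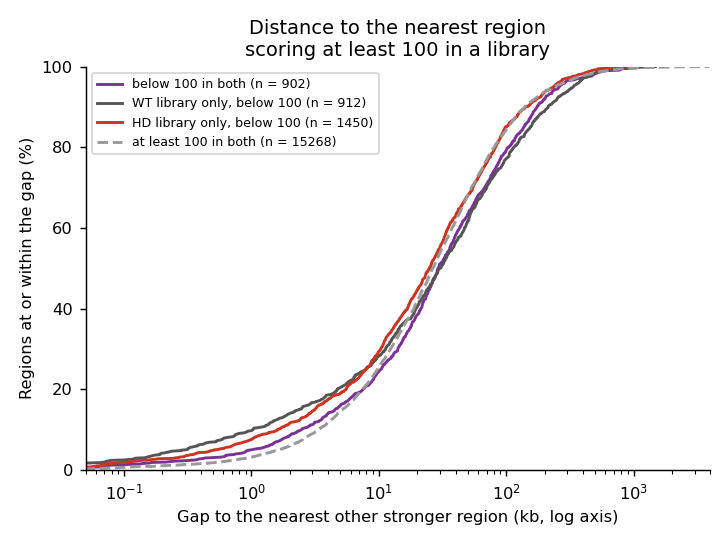
Cumulative share of regions (y axis, %) against the gap to the nearest other region that scored at least 100 in either list (x axis, kb, log axis). The curve of the 902 regions lies below both single-library curves at 1 kb (4.99% against 9.76% in WT and 7.66% in HD) and at 5 kb (16.0% against 20.4% and 19.0%). Of these pairs, only WT at 1 kb had intervals that did not overlap.

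The nearest cases were separate peaks next to a strong one. The narrowest region of all, at chr12:11444732-11445356, lay 4 bp from a region of 3586 bp with a WT score of 1526.38, and both libraries had it as a separate peak (625 and 563 bp). On chr13:104901420-104902689 the gap was 9 bp, and the WT peak of 1270 bp faced an HD peak of 867 bp. On chr5:72592769-72593761 it was 19 bp, with 911 and 967 bp. The region at chr18:4350243-4352196, 12 bp from its neighbour, barely met the rule: the WT peak of 868 bp and the HD peak of 1234 bp overlapped by 148 bp.

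At the other extreme, 16 weak regions lay over 500 kb from any stronger region. The 4 most remote were at chr8:16272246-16273390, 1242 kb away with a WT peak of 951 bp and an HD peak of 1145 bp, at chr11:39402054-39403075, 1101 kb away with 1022 and 865 bp, at chr2:46298390-46299831, 1087 kb away with 1442 and 757 bp, and at chr8:22140870-22141762, 1028 kb away with 724 and 893 bp. Both libraries thus had a short peak at the same place over a megabase from stronger signal in these 4 cases. Both regions on chromosome 8 were longer in HD and the other 2 were shorter.

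Distance went with width more than with the HD to WT ratio. The 77 weak regions within 2 kb of a stronger one had a median width of 1365 bp (1263 to 1514 bp), and the 187 beyond 100 kb had 1212 bp (1179 to 1257 bp). Their median log2 ratios were -0.23 (-0.32 to -0.11) and -0.14 (-0.21 to -0.092), and the regions at 2 to 10 kb and at 10 to 100 kb had -0.18 and -0.15. All these intervals overlapped. Across the 902 regions the Spearman correlation of distance with width was -0.10, and that with the log2 ratio was 0.021. The HD edge that faced the stronger neighbour lay inward by a median of 54.5 bp (38 to 69 bp) and the edge away from it by 53.5 bp (42 to 71 bp), so neither side was favoured. Within 5 kb of the neighbour these medians were 84 and 75 bp (n = 143), with intervals of 46 to 114 and 33 to 113 bp.

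The stronger neighbours were ordinary peaks. Counted once per weak region, 805 of the 902 nearest stronger regions scored at least 100 in both lists. The median width over all 902 was 2493 bp. The median WT score of the neighbours was 930.09 and the median HD score 1375.59. Only 27 were found in 1 library, 22 in HD and 5 in WT. The log2 ratio of a weak region said little about that of its neighbour: over the 875 pairs with a shared neighbour the Spearman correlation was 0.071, and the neighbours' median ratio was -0.088. Most weak regions had a neighbour of their own, since 846 different stronger regions were nearest to a member and at most 3 weak regions shared one.

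Weak regions did not form large groups. The nearest other weak shared region was a median of 626 kb away, and for stronger shared regions the nearest weak one was a median of 660 kb away. Within 10 kb of each other were 24 of the 902 (2.66%, 1.71 to 3.93%), against 1.59% (1.39 to 1.80%) of stronger shared regions with a weak one so near. Divided into bins of 1 Mb, 526 bins held 1 weak region, 122 held 2 and 41 held 3 or more. The fullest bin, picked after its values were seen, had 6 weak regions on chromosome 2 between 165145527 and 165710689, beside 11 stronger ones. These 6 were 1057 to 2004 bp wide, lay 1.43 to 30.5 kb from a stronger region, and 3 of them were shorter in HD, with log2 ratios from -0.75 to 0.38.

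Within 500 kb on either side of its centre, a weak region had a median of 9 stronger regions (8 to 9; quartiles 5 and 15). Regions of at least 100 in both had 11 others (11 to 11; quartiles 6 and 20). The single-library weak regions had 7 in WT (7 to 8) and 10 in HD (9 to 10). Regions of 100 to 200 in both also had 9 (9 to 10), those below 100 in HD only had 8 (7 to 9) and those below 100 in WT only had 11 (10 to 12). Of the weak shared regions, 16 had no stronger region in this window.

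All 19 autosomes carried weak shared regions, from 17 on chromosome 19 to 75 on chromosome 2. As a share of the shared regions of a chromosome they ranged from 3.07% (1.80 to 4.88%) on chromosome 19 to 7.49% (5.38 to 10.1%) on chromosome 18. Low shares also occurred on chromosome 11, with 3.90% (2.93 to 5.08%), and high ones on chromosome 12 with 7.06% (5.20 to 9.34%), chromosome 10 with 6.98% (5.39 to 8.86%) and chromosome 1 with 6.83% (5.35 to 8.58%). Chromosomes 11 and 19 had the densest stronger regions, 11.2 and 9.53 per Mb, and chromosome 1 had 4.96 per Mb. Across the 19 autosomes, the Spearman correlation of this density with the share of weak regions was -0.76, and that with the number of weak regions per Mb was 0.20. Stronger regions enter the denominator of the share, so the first of these values is partly built in.

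On the X chromosome 12 of 549 shared regions were weak in both lists, 2.19% (1.13 to 3.79%), against 5.29% (4.96 to 5.64%) on the autosomes. At lower limits the share on X was still the lower one, but its wide interval held the autosomal share, so the difference was not resolved there. With a score limit of 75 the shares were 1.46% (0.631 to 2.85%) on X and 2.03% on the autosomes, and with the lowest 10% of scores in each list 1.46% and 2.28%. With a limit of 150 they were 7.29% (5.26 to 9.79%) and 10.8%. The shared regions of X were also spread differently over the higher scores: X made up 6.78% of regions with a lower score of 200 to 500 and 1.01% of those with 1000 or more, against 1.33% of the weak shared regions. Of the 12 weak regions on X, 10 were shorter in HD, with a median log2 ratio of -0.16 (-0.39 to -0.006). No weak shared region lay on the Y chromosome, where 4 regions were shared, which allows a share of up to 60.2%.

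The shorter HD length was found along the genome. The median log2 ratio of the weak regions was below 0 on all 19 autosomes, between -0.26 on chromosome 16 and -0.073 on chromosome 18, and the interval lay wholly below 0 on 15 of them. The 4 exceptions were chromosomes 6, 12, 18 and 19, with 46, 45, 39 and 17 weak regions.

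**Figure D5:**
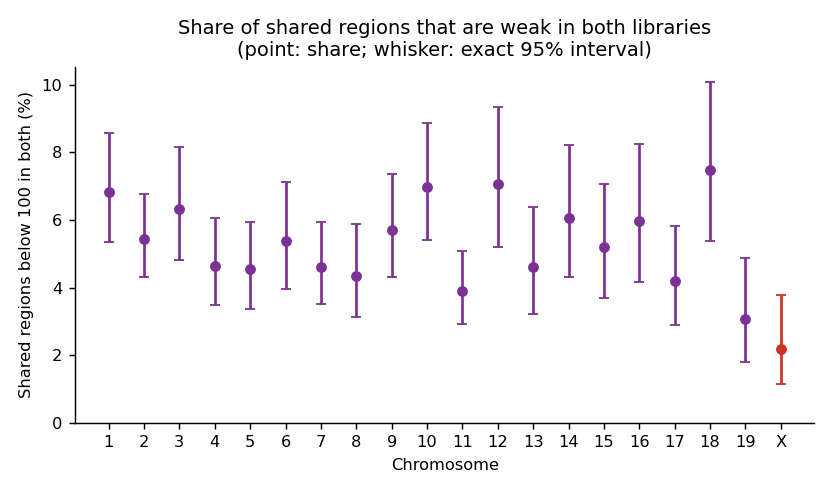
Share of the shared regions of each chromosome that were below 100 in both lists (y axis, %; x axis, chromosome); points are shares and whiskers exact 95% intervals. Autosomes range from 3.07% on chromosome 19 to 7.49% on chromosome 18, and X has 2.19%; with a score limit of 75 the X interval held the autosomal share.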

How the data were processed

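H3K4me3 ChIP-seq libraries of hippocampus were compared as peak lists, 1 from WT and 1 from N171-82Q mice. The authors deposited the position and a score of each peak; the peak names carry the name MACS, per the files. For MACS, the version, settings and any input control were not given in the sources used here. Builds mm9 and NCBIM37 and the tools SAMtools, BWA 0.5.9 and CASAVA 1.8.2 come from the submitters' processing notes. Coordinates are mm9, counted from 1. The score's unit is not named, and the files hold no read counts, so depth is unknown. Scores served only to choose, rank and describe peaks within their own list. The labels say that the WT reads also belong to an earlier deposit and say nothing of the kind for HD; no sequencing date is given.

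Peaks overlapping by at least 1 bp were joined with Python 3.11.15, numpy 2.4.6 and pandas 2.3.3; intervals used scipy 1.17.1 and plots matplotlib 3.10.9. Covered length is the sum of a library's peaks in a region. The code was tested on simulated data. Named regions are the 4 widest, narrowest, nearest and most remote, the 6 largest gains and 6 largest losses of covered length (mean length at least 500 bp), and the 2 nearest the score limit on each side. The members and comparisons were chosen with earlier results of these data known. Gene annotation and genome sequence of mm9 were not used here, so genes, exons and promoters are not assigned.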

Additional observations from a re-analysis of the deposited data

How the results depend on the processing

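The median log2 ratio of the weak shared regions was below 0 under every alternative run. A score limit of 75 left 350 regions with a median width of 1178 bp, a median log2 ratio of -0.18, 73.7% shorter in HD, 43 over 1.5-fold shorter, 3 over 1.5-fold longer and a median distance of 26414 bp. A limit of 150 gave 1861 regions of 1315 bp, 179 and 34 beyond 1.5-fold, and a share of 7.29% on X against 10.8% on the autosomes. With the lowest 10% of scores in each list there were 392 regions of 1186 bp, 73.7% shorter in HD, 46 and 3 beyond 1.5-fold, and a median distance of 26048 bp. In the alternatives with a limit of 75 or the lowest 10% the intervals of the X share, 1.46%, held the autosomal shares of 2.03% and 2.28%. Stronger regions of at least 200 lay at a median of 36357 bp, and those of at least 100 in both lists at 34431.5 bp. Joining peaks within 1 kb changed the share within 5 kb to 11.1%. Limits chosen after the data were seen gave log2 ratios of -0.070 with 59.1% shorter (WT limit only) and -0.098 with 62.3% shorter (either list), and 73.0% shorter with the HD limit only. Requiring an overlap of 50%, 1 peak per library or autosomes left the values close to those reported. No paired analysis was possible because WT and HD had 1 library each. Unknown depth limits what a weak or missing peak can show.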
